A study of Mus musculus with 4 samples.

Results

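Adipocyte and lipid synthesis genes were followed in mouse salivary glands. The set holds 35 genes, of 34844 gene names on the array. It was a fixed list of names, chosen with earlier results of these data known. By role it was sorted into 4 adipokines, 6 genes of the lipid droplet and lipolysis and 6 of uptake and transport. The others were 6 regulators and receptors, 5 enzymes of glycerolipid synthesis and 8 genes of fatty acid synthesis. Each member had at least 1 probe under its name. Total RNA of submandibular plus sublingual glands was measured on 1-colour microarrays in 2 genotypes with 2 arrays each, to ask how loss of the adaptor MyD88 alters gene expression in these glands. Myd88-/- mice carried the null genotype in every tissue and Myd88+/+ mice were wild type; both were females of strain C57/BL6 aged 10 weeks, bred from heterozygous parents. Lymph nodes, connective tissue and fat had been trimmed from the glands before RNA was taken. The sources used here do not say whether an array stands for 1 mouse or a pool, so the spread between arrays may be technical in part.

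Adipocytes store triglyceride in a droplet coated with perilipins and release it by lipolysis. They take up fatty acids from the blood, or make them from citrate through ATP citrate lyase, acetyl-CoA carboxylase and fatty acid synthase, and join them to glycerol phosphate. Acinar and duct cells of salivary glands also use general enzymes of lipid synthesis, whereas adiponectin and perilipin 1 are mostly products of fat cells, which lie between the lobules of these glands.

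Levels are given as log2 signal minus the 75th percentile of the same array, so that 1 unit is a 2-fold change and 0 is that percentile. Differences are Myd88-/- minus Myd88+/+, with the standard error from limma, and adjusted p is limma's Benjamini-Hochberg value over all 22312 genes tested. The scanner software marked 52.2% of probes as well above background on Myd88-/- array 1 and 68.4% on array 2. For Myd88+/+ the shares were 74.1% on array 1 and 55.1% on array 2. The share thus differed more within a genotype than between genotypes. The Myd88 probe read 1.51 and 1.41 on the Myd88-/- arrays and 1.15 and 1.07 on the Myd88+/+ arrays, a difference of 0.35 (standard error 0.11) with limma adjusted p = 0.264. It was not lower on the arrays labelled Myd88-/-. Which exons were deleted is not given in the sources used here, so this probe does not check the deletion, and genotypes are named as labelled.

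The tissue label was read against 12 salivary gland genes. All 12 were well above background on all 4 arrays, with Dcpp2, a secreted protein of these glands, at 10.62 and 10.68 on the Myd88-/- arrays and 10.25 and 10.37 on the Myd88+/+ arrays. The summed level of the list was 5691 and 5508 on the Myd88-/- arrays and 5127 and 5366 on the Myd88+/+ arrays, in units of the 75th percentile. RNA of fat cells was present too, as Adipoq and Plin1 passed the background threshold on all 4 arrays. In all, 33 of the 35 members did so, among them the 13 of lipid synthesis, a pathway that gland cells also use. Nnat passed the filter on dim probes only through the Myd88+/+ arrays, and Lep was not well above background on any array, so 34 members were tested.

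Of the 34 tested members, 34 had a lower mean in Myd88-/- glands, and in 32 both Myd88-/- arrays lay below both Myd88+/+ arrays on the probe taken for the gene. Nnat is 1 of the 32, but it passed only through the Myd88+/+ arrays, which favours a lower reading in Myd88-/-, so its direction adds no support. With the filter on all 4 arrays, 33 members were tested, 33 had a lower mean and 31 were apart and lower, against 17.9% of all genes so tested. With the filter on either genotype, 18.7% of all genes tested were apart and lower, and 33.2% were apart in the other direction. Since members were chosen with earlier results of these data known, such shares describe the set and lend it no independent support. In 13 members the arrays were apart and the difference was 2-fold or more, against 3.07% of all genes tested. With 1 array left out these members numbered 10 to 21. No share of all genes at 2-fold is given for those fits, in which 23.4% to 32.2% were apart and lower by any amount. The median difference of the tested members was -0.84, and it was the same to 2 decimals with Nnat at its bound and -0.50 without Myd88-/- array 1; over all genes tested the median was 0.06. Limma called 0 members and 0% of all genes at an adjusted p under 0.05; at an unadjusted p under 0.05 it found 18 members lower (17 without Nnat) and 0 higher, against 6.83% of all genes lower and 9.82% higher. With trend and robust moderation the same limma fit called 482 genes, 8 of them members: Acaca, Agpat2, Cd36, Dgat2, Elovl6, Fasn, Gpd1 and Thrsp. With normexp background correction limma called 79 genes, of which Acaca, Dgat2, Elovl6 and Fasn were members, and the methods' t-test with Benjamini-Hochberg called 1 gene and 0 members. The exact permutation test of 2 against 2 arrays cannot go below p = 0.333, two-sided. In bulk RNA, fewer fat cells, less fat left after trimming and less RNA per fat cell cannot be told apart. For the general enzymes of lipid synthesis, a lower level in other gland cells cannot be separated from these either.

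**Figure D1:**
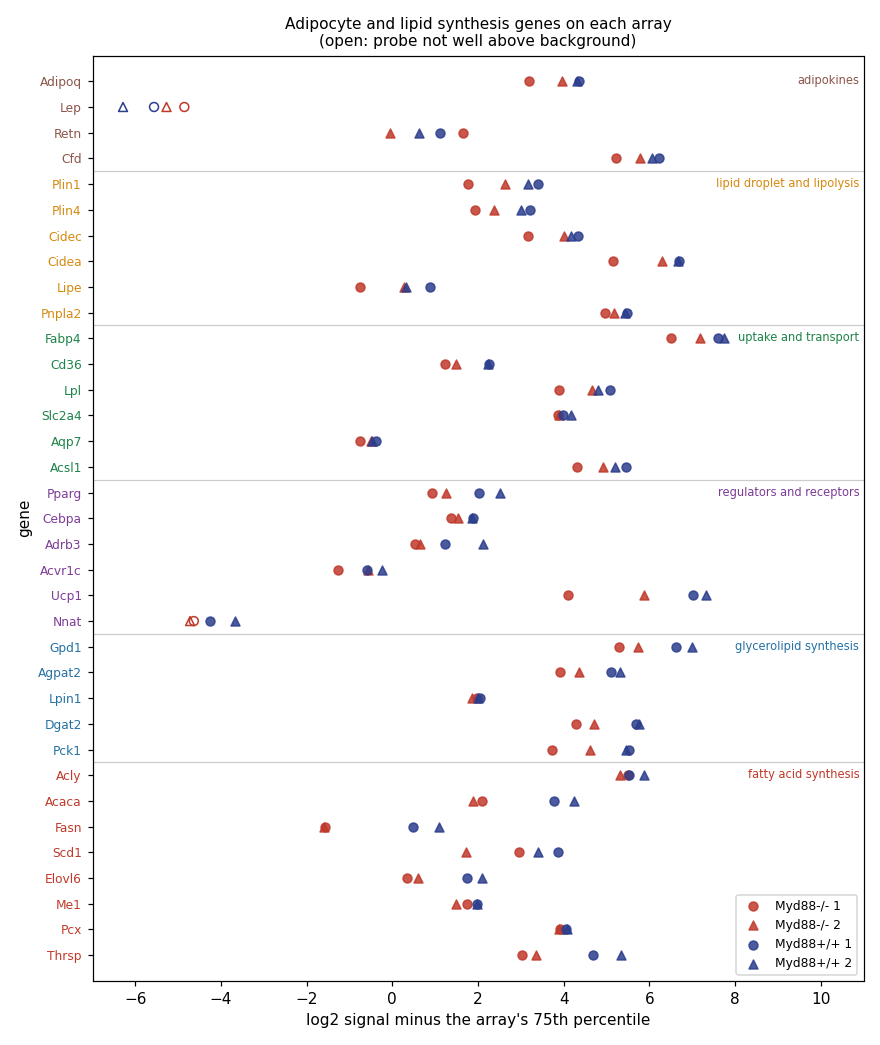
Level of each of the 35 genes on each array, as log2 signal minus the 75th percentile of the array, with red for Myd88-/-, blue for Myd88+/+, and open symbols where the probe was not well above background. In 32 of the 34 tested genes both red symbols lie to the left of both blue symbols.

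The size of the difference depended on Myd88-/- array 1. The median of the tested members came to -0.50 when it was left out, and to -1.11 when Myd88-/- array 2 was left out instead. The summed level of all 35 members was 475 and 704 on the Myd88-/- arrays and 1083 and 1171 on the Myd88+/+ arrays. Array 1 was thus the lower of the Myd88-/- pair, and both lay below the Myd88+/+ pair.

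For members that differed together, the 250 bases before the start of transcription were taken from a table of RefSeq windows, build GRCm38.p6, in which 27 of the 35 members were found by name. The stretch is shown for the member with the most negative difference in each role, among members with a window, with capitals marking CCAAT or its reverse complement ATTGG, the letters of the CCAAT box. Adipoq (chr16:23146286-23146535, plus strand) held 3 matches, which begin 34, 27 and 7 bases before the start. Fasn (chr11:120824548-120824797, minus strand) also held 3, beginning 90, 62 and 59 bases before the start, and the last 2 overlap. Cd36 (chr5:17835897-17836146, minus strand) held 1, beginning 195 bases before the start. No match was in the windows of Plin1 (chr7:79732777-79733026, minus strand), Ucp1 (chr8:83290098-83290347, plus strand) and Pck1 (chr2:173152823-173153072, plus strand).
Adipoq: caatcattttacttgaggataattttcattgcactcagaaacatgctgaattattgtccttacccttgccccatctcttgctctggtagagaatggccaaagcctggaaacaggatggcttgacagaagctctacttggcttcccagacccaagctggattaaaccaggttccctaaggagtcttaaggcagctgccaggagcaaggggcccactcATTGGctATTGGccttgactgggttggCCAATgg
Plin1: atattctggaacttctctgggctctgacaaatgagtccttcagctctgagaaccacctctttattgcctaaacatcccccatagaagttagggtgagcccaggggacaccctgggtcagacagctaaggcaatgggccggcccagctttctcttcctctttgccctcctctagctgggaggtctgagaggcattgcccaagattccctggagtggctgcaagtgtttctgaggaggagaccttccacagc
Cd36: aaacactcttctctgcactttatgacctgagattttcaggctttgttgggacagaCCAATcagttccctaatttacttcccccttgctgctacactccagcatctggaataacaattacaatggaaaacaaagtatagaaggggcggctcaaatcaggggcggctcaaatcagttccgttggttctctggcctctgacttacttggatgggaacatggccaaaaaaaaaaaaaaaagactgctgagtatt
Ucp1: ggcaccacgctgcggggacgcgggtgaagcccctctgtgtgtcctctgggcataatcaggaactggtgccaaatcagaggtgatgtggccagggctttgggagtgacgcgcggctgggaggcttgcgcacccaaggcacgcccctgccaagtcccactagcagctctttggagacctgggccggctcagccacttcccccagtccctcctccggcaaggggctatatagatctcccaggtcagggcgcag
Pck1: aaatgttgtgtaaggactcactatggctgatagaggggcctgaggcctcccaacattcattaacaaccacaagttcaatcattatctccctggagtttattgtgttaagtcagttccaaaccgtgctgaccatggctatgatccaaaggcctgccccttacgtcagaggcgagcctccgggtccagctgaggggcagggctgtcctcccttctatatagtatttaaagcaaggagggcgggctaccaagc
Fasn: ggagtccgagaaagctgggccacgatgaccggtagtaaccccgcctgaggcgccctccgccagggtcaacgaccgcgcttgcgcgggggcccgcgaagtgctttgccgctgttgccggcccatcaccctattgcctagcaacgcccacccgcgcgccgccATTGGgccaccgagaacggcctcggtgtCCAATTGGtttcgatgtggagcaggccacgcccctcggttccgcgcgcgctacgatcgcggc

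On either strand of these 250 bases, CCAAT was in 6 of the 27 member windows (22.2%) and in 34.5% of the windows of all 27025 genes in the table. The nuclear receptor core AGGTCA was in 7 member windows (25.9%: Cd36, Aqp7, Pparg, Ucp1, Lpin1, Acly and Elovl6), against 13.8% of all. Its direct repeat AGGTCANAGGTCA, which holds that core, was in 0 member windows and 0.037% of all. The core TTGCNNAA, bound by C/EBP proteins, was in the windows of Lep and Plin1 (7.41%), against 9.55% of all. The sterol response core TCACNCCAC was in 0, against 1.04%, the E-box CACGTG in 2 (Lipe and Pcx), against 6.05%, and TATAAA in 1 (Cebpa), against 13%. A match describes letters in this window and was not tested as a binding site.

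Among the adipokines, the hormones and secreted proteins of fat cells, 3 of 4 were tested and 2 had arrays apart and lower, as had 18.7% of all genes. Adipoq, which encodes adiponectin, read 3.20 and 3.96 on the Myd88-/- arrays and 4.35 and 4.32 on the Myd88+/+ arrays. Both Myd88-/- arrays were below both controls, by 1.69-fold in the mean, a difference of -0.76 (standard error 0.29) with limma adjusted p = 0.328, and -0.38 without Myd88-/- array 1. Cfd, which encodes adipsin, a protease of the alternative complement pathway, read 5.22 and 5.78 on the Myd88-/- arrays and 6.23 and 6.06 on the Myd88+/+ arrays. Its arrays were apart in the same direction, with a difference of -0.65 (standard error 0.23) and limma adjusted p = 0.308. Without Myd88-/- array 1 the difference of Cfd was -0.37. Retn, which encodes resistin, read 1.64 and -0.07 on the Myd88-/- arrays and 1.11 and 0.63 on the Myd88+/+ arrays. The 2 Myd88-/- arrays lay on either side of both controls, so the difference of -0.08 was within the spread between replicates. Its second probe showed the same overlap. Lep, which encodes leptin, has no usable difference, since its probe was not well above background on any array. The median of the 3 tested adipokines was -0.65, and -0.38 without Myd88-/- array 1; with no filter on dim probes, which lets Lep in, it was -0.36.

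In the group of the lipid droplet and lipolysis, 6 of 6 members were tested and in all 6 the arrays were apart and lower, against 18.7% of all genes. Plin1, the perilipin that coats the droplet and controls access of lipases, read 1.75 and 2.63 on the Myd88-/- arrays and 3.39 and 3.18 on the Myd88+/+ arrays. The difference was -1.09 (standard error 0.34), with limma adjusted p = 0.271, and -0.65 without Myd88-/- array 1. Cidea, a droplet protein abundant in brown fat, read 5.14 and 6.31 on the Myd88-/- arrays and 6.70 and 6.68 on the Myd88+/+ arrays. Myd88-/- array 1 was far below the other 3 arrays, and the difference was -0.96 (standard error 0.44), or -0.38 without that array. Plin4, a further perilipin, read 1.92 and 2.37 on the Myd88-/- arrays and 3.20 and 3.003 on the Myd88+/+ arrays, a difference of -0.96 (standard error 0.20). Lipe, which encodes hormone-sensitive lipase, read -0.76 and 0.28 on the Myd88-/- arrays and 0.89 and 0.32 on the Myd88+/+ arrays. Here Myd88-/- array 2 lay just under Myd88+/+ array 2, and limma adjusted p was 0.426. Cidec, which promotes fusion of droplets, read 3.17 and 4.005 on the Myd88-/- arrays and 4.34 and 4.16 on the Myd88+/+ arrays, and its second probe differed by -0.61, with overlapping arrays. The remaining member, Pnpla2, the lipase that starts triglyceride breakdown, differed by -0.38. The median of the group was -0.90, and -0.36 without Myd88-/- array 1.

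For uptake and transport, all 6 members were tested and had arrays apart and lower, against 18.7% of all genes, with a median of -0.69, and -0.34 without Myd88-/- array 1. Cd36, a fatty acid translocase of the cell surface, read 1.22 and 1.49 on the Myd88-/- arrays and 2.25 and 2.22 on the Myd88+/+ arrays. Replicates lay close together and the genotypes well apart, at -0.88 (standard error 0.14) with limma adjusted p = 0.196. Fabp4, the fatty acid binding protein of adipocytes, read 6.50 and 7.17 on the Myd88-/- arrays and 7.61 and 7.73 on the Myd88+/+ arrays. Its difference was -0.84 (standard error 0.27), and -0.50 without Myd88-/- array 1. Acsl1, which activates fatty acids as acyl-CoA, read 4.30 and 4.91 on the Myd88-/- arrays and 5.45 and 5.19 on the Myd88+/+ arrays. Lpl, the lipase that frees fatty acids from lipoproteins, read 3.88 and 4.67 on the Myd88-/- arrays and 5.09 and 4.80 on the Myd88+/+ arrays. In these 3 genes Myd88-/- array 1 was the lowest of the 4 arrays. The second probes of Acsl1 and Lpl differed by -0.61 and -0.56, with overlapping arrays. Aqp7, the glycerol channel of fat cells, read -0.77 and -0.50 on the Myd88-/- arrays and -0.39 and -0.48 on the Myd88+/+ arrays, and Myd88-/- array 2 almost reached Myd88+/+ array 2. Slc2a4, the insulin-responsive glucose transporter, differed by -0.19, or -0.09 without Myd88+/+ array 2.

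Among regulators and receptors, 6 members were tested and 5 had arrays apart and lower (against 18.7% of all genes), 1 of them Nnat, which passed only through the Myd88+/+ arrays. Ucp1, the uncoupling protein that makes heat in brown fat, read 4.10 and 5.88 on the Myd88-/- arrays and 7.02 and 7.33 on the Myd88+/+ arrays. The mean was 4.55-fold lower, a difference of -2.19 (standard error 0.67) with limma adjusted p = 0.265, and the Myd88-/- arrays were far from each other. Leaving out Myd88-/- array 1 gave -1.30 for Ucp1 and leaving out array 2 gave -3.08. Pparg, the nuclear receptor that drives fat cell formation, read 0.92 and 1.26 on the Myd88-/- arrays and 2.02 and 2.51 on the Myd88+/+ arrays. Its difference was -1.17 (standard error 0.24), with limma adjusted p = 0.204. Adrb3, the adrenergic receptor that triggers lipolysis, read 0.52 and 0.64 on the Myd88-/- arrays and 1.23 and 2.11 on the Myd88+/+ arrays. The Myd88+/+ arrays spread more than the Myd88-/- arrays, and the second probe differed by -0.29. Cebpa, a transcription factor that acts with Pparg, read 1.36 and 1.54 on the Myd88-/- arrays and 1.87 and 1.87 on the Myd88+/+ arrays, a smaller difference of -0.42 (standard error 0.11). Nnat, which encodes neuronatin, read -4.64 and -4.72 on the Myd88-/- arrays and -4.26 and -3.67 on the Myd88+/+ arrays, and was not well above background on either Myd88-/- array. It was at least 1.03-fold higher in Myd88+/+ glands, where the Myd88-/- level on each array was set to that array's dimmest signal still well above background, or to the probe itself if brighter. This limit was 0.836-fold at its lowest with 1 array left out, so no limit holds. Its second probe had overlapping arrays and was well above background on 2 of the 4 arrays. Acvr1c, the activin receptor ALK7, had overlapping arrays and differed by -0.50, or -0.15 without Myd88-/- array 1, while its second probe was apart and lower, at -0.80.

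The enzymes of glycerolipid synthesis build triglyceride from glycerol phosphate. All 5 were tested with arrays apart and lower, against 18.7% of all genes, and the median was -1.23. In 4 of them the difference was 2-fold or more, against 3.07% of all genes. Without Myd88-/- array 1 the number at 2-fold or more was 2, and no share of all genes at that size is given for that fit. Pck1, which supplies glycerol phosphate from pyruvate in fat cells, read 3.72 and 4.60 on the Myd88-/- arrays and 5.52 and 5.45 on the Myd88+/+ arrays. Gpd1, which makes glycerol phosphate from a glycolytic intermediate, read 5.28 and 5.73 on the Myd88-/- arrays and 6.63 and 6.99 on the Myd88+/+ arrays. The differences were larger than the gap between replicates, at -1.32 (standard error 0.34) for Pck1. For Gpd1 the difference was -1.30 (standard error 0.23), with limma adjusted p = 0.203. Dgat2, which adds the last fatty acid to triglyceride, read 4.29 and 4.70 on the Myd88-/- arrays and 5.68 and 5.77 on the Myd88+/+ arrays. Its mean was 2.34-fold lower in Myd88-/- glands, with limma adjusted p = 0.194. Agpat2, an acyltransferase of an earlier step, read 3.92 and 4.35 on the Myd88-/- arrays and 5.10 and 5.31 on the Myd88+/+ arrays, and its second probe differed by -1.06, close to the -1.07 of the first. Lpin1, a phosphatidate phosphatase, stood out for its small difference. It read 1.97 and 1.87 on the Myd88-/- arrays and 2.04 and 1.99 on the Myd88+/+ arrays. The difference was -0.09, or -0.04 without Myd88-/- array 2, and its second probe had overlapping arrays.

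**Figure D2:**
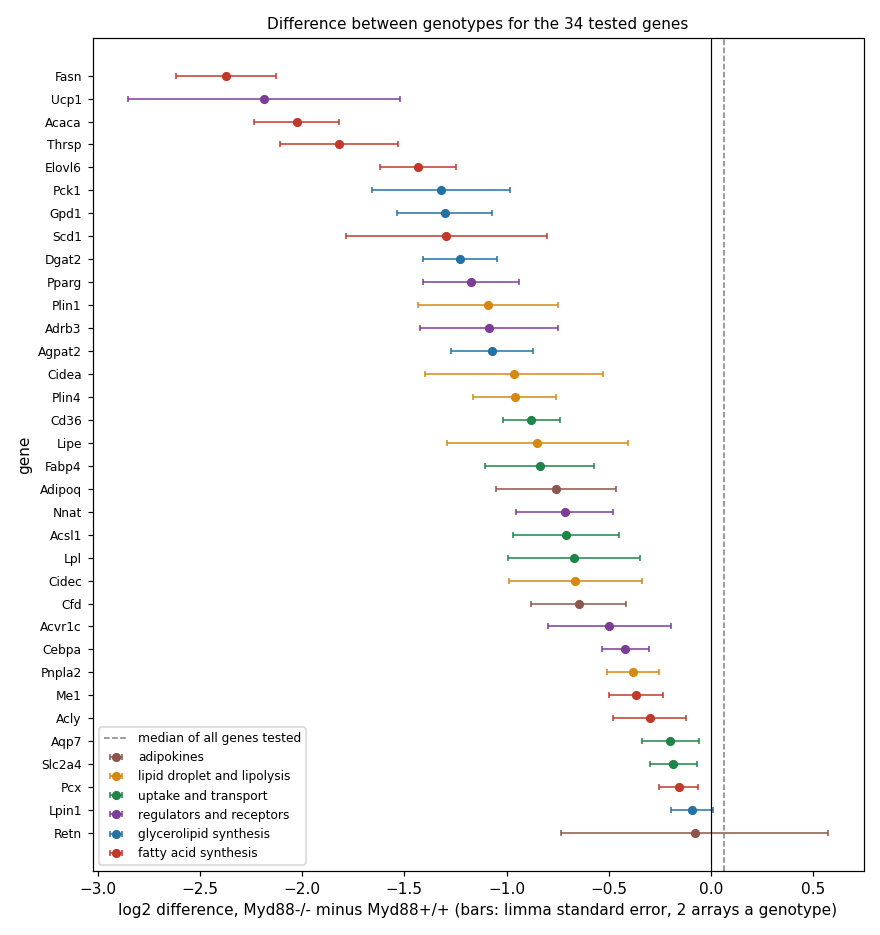
Log2 difference between genotypes for the 34 tested genes, coloured by role, with bars for the limma standard error and a dashed line at the median of all genes tested, 0.06. Fasn, at -2.37, is the most negative and Retn, at -0.08, nearest to 0.

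In fatty acid synthesis, 8 of 8 members were tested with arrays apart and lower, 5 of them by 2-fold or more, against 18.7% and 3.07% of all genes, and the median was -1.36. Fasn, fatty acid synthase, read -1.57 and -1.61 on the Myd88-/- arrays and 0.48 and 1.09 on the Myd88+/+ arrays. The mean was 5.18-fold lower in Myd88-/- glands, a difference of -2.37 (standard error 0.24) with limma adjusted p = 0.194, and the 2 Myd88-/- arrays nearly coincided. Acaca, acetyl-CoA carboxylase 1, which makes the malonyl-CoA that Fasn uses, read 2.09 and 1.88 on the Myd88-/- arrays and 3.78 and 4.24 on the Myd88+/+ arrays. Its difference was -2.03 (standard error 0.21), and 2 of the 3 other probes of the gene gave -2.05 and -1.36. The array's annotation places the probe at -2.05 on chromosome 12 and the rest on chromosome 11. The remaining probe was well above background on 2 of the 4 arrays and is given no size. Thrsp, a nuclear protein linked to lipogenesis, read 3.03 and 3.36 on the Myd88-/- arrays and 4.68 and 5.35 on the Myd88+/+ arrays, a difference of -1.82 (standard error 0.29). Elovl6, which lengthens palmitate, read 0.35 and 0.61 on the Myd88-/- arrays and 1.73 and 2.09 on the Myd88+/+ arrays, a difference of -1.43 (standard error 0.19). In these 4 genes the gap between genotypes exceeded the gap between replicates. Scd1, which places a double bond in stearate, read 2.96 and 1.72 on the Myd88-/- arrays and 3.86 and 3.41 on the Myd88+/+ arrays, and Myd88-/- array 2 was the lowest, unlike in most adipocyte genes. The remaining 3 differed less: Me1, which supplies NADPH, by -0.37, or -0.24 without Myd88-/- array 2. Acly, which makes cytosolic acetyl-CoA, differed by -0.30, or -0.12 without Myd88+/+ array 2, with overlapping arrays on its second probe, and Pcx, pyruvate carboxylase, by -0.16.

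Set apart from the adipokines, the 13 enzymes and regulators of glycerolipid and fatty acid synthesis had a median of -1.29, and -1.02 without Myd88-/- array 1. Their summed level was 176 and 204 on the Myd88-/- arrays and 359 and 425 on the Myd88+/+ arrays. That of the adipokines was 49.6 and 71.3 on the Myd88-/- arrays and 97.7 and 88.2 on the Myd88+/+ arrays. Both sums were lower on both Myd88-/- arrays, and the difference between the lists was not tested. In fatty acid synthesis alone the sum was 85.2 and 76.4 on the Myd88-/- arrays and 125 and 156 on the Myd88+/+ arrays, so Myd88-/- array 1 was not the lower of its pair there.

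**Figure D3:**
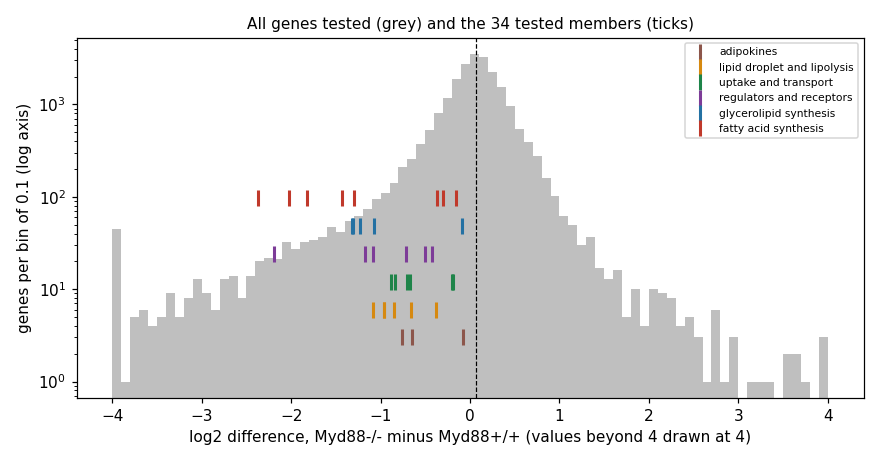
Distribution of the log2 difference over the 22312 genes tested (grey bars, log axis), with ticks for the 34 tested members by role and a dashed line at the median of all genes. The ticks lie left of 0, with a median of -0.84.

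Genes next to these pathways were counted from lists of their own, where 18.7% of all genes were apart and lower and 33.2% apart and higher. Of 30 other adipocyte genes, 30 were tested, 20 had arrays apart and lower (19 without Npr3, which passed only through the Myd88+/+ arrays), 2 apart and higher, and the median was -0.39. Angptl4, an inhibitor of lipoprotein lipase, read 1.79 and 2.59 against 3.63 and 3.21, Myd88-/- against Myd88+/+. Plin5, a perilipin of oxidative tissues, read 1.73 and 2.61 against 3.61 and 3.01, and Tusc5, a protein of glucose transporter traffic, read -2.26 and -1.54 against -0.45 and -1.37. Npr3, the natriuretic peptide clearance receptor, was at least 1.37-fold higher in Myd88+/+ glands, or 1.07-fold at the lowest with 1 array left out. Of 11 brown fat genes, 7 were apart and lower and 1 apart and higher, with a median of -1.10, and -0.61 without Myd88-/- array 1. Fabp3, a fatty acid binding protein of oxidative tissues, differed by -1.60. Otop1 differed by -1.45 and Cpt1b, the carnitine acyltransferase of muscle and brown fat, by -1.44. Slc27a2, an acyl-CoA synthetase, differed by -1.30. Without Myd88-/- array 1 these 4 genes gave -0.95, -0.88, -0.77 and -0.61. Several of these genes are also expressed in muscle. Zic1, Prdm16 and Ppargc1a differed by 0.12, -0.18 and 0.14, values chosen after they were seen. The second probe of Ppargc1a differed by -0.18 with overlapping arrays, and that of Zic1 was not well above background on any array.

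Other lipid pathways were counted beside the 18.7% of all genes apart and lower and the 33.2% apart and higher. Of 24 other lipid synthesis genes, 8 were apart and lower and 5 apart and higher, with a median of -0.13, and from -0.20 to -0.06 with 1 array left out. Scd2, a desaturase related to Scd1, read 4.88 and 3.97 against 3.11 and 3.74, higher on the Myd88-/- arrays. Insig1, a sterol-regulated brake on lipid synthesis, was also higher, at 0.51 and 0.29 against -0.26 and -0.61. Pnpla3, which encodes a lipase-like protein, was lower, at -2.65 and -2.32 against -1.76 and -1.75, with overlapping arrays on its second probe, and Agpat6, an acyltransferase, differed by -0.57. Of 16 cholesterol synthesis genes, 0 were apart and lower and 9 apart and higher, with a median of 0.28, and 0.14 without Myd88-/- array 1. Cyp51, Sqle and Mvd, enzymes of the sterol pathway, differed by 0.79, 0.77 and 0.72, with Cyp51 at 0.51 without Myd88+/+ array 1. Of 14 fatty acid oxidation genes, 12 were apart and lower and 1 apart and higher, and the median was -0.47, or -0.24 without Myd88-/- array 1, with Acaa2 at -0.62, Cpt2 at -0.58, Hadhb at -0.54 and Decr1 at -0.53. Without that array these 4 gave -0.40, -0.37, -0.24 and -0.23. Limma called none of these genes at an adjusted p under 0.05.

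Markers of other cells were read beside these results and beside the 18.7% of all genes apart and lower. All 12 tested skeletal muscle markers of 13 were apart and lower, 5 of them passing only through the Myd88+/+ arrays, with a median of -4.36, or -3.76 with genes at their bound. Their summed level was 3.64 and 3.7 on the Myd88-/- arrays and 30.2 and 170.0 on the Myd88+/+ arrays. Acta1, skeletal actin, read 0.73 and 0.65 against 1.80 and 3.79. Myh4, Actn3, Myh2 and Mylpf were not well above background on either Myd88-/- array, and Myh4, a fast myosin, was at least 218-fold higher in Myd88+/+ glands, or 88.6-fold without Myd88+/+ array 2. Myh8, Tnnc2 and Tnni2, further proteins of the sarcomere, differed by -7.52, -5.99 and -5.07. The 3 other probes of Myh8 had overlapping arrays, and 2 of them were not well above background on any array. Of 10 lymphocyte markers, 9 were apart and lower, 4 of them passing only through the Myd88+/+ arrays, with a summed level of 7.92 and 8.34 on the Myd88-/- arrays and 34.7 and 20.4 on the Myd88+/+ arrays. Cd3e, of the T cell receptor, had overlapping arrays, while Ms4a1, a B cell gene, was not well above background on either Myd88-/- array and was at least 28.5-fold higher in Myd88+/+ glands, or 19.2-fold at the lowest with 1 array left out. Cd79b, of the B cell receptor, differed by -5.08. Cd3d, of the same receptor as Cd3e, was well above background on 1 of the 2 Myd88-/- arrays and is given no size. The part of muscle or lymphoid tissue in the adipocyte result was not tested.

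Stromal, vascular and nerve lists were read in the same way, beside 18.7% of all genes apart and lower and 33.2% apart and higher. The summed level was 155 and 163 on the Myd88-/- arrays and 190.2 and 168 on the Myd88+/+ arrays for 10 stromal markers, of which 7 were apart and lower and 1 apart and higher. Dcn had overlapping arrays, and Lum, Col1a1, Col3a1 and Col1a2 differed by -0.83, -0.56, -0.52 and -0.40. For 11 endothelial markers the sum was 57.4 and 64.2 on the Myd88-/- arrays and 58.6 and 69 on the Myd88+/+ arrays, with 5 apart and lower and 2 apart and higher. Kdr had overlapping arrays, and Cdh5 and Tie1 differed by -0.64 and -0.57, Egfl7 by -0.49 and Esam by -0.43. For 10 macrophage markers it was 81.3 and 80.9 on the Myd88-/- arrays and 74.6 and 74.5 on the Myd88+/+ arrays, with 0 apart and lower and 3 apart and higher, or 2 without Cd163. Itgam had overlapping arrays, and Emr1 and Cd14 differed by 0.65 and 0.24, while the second probe of Emr1 had overlapping arrays. Without Myd88-/- array 2 that second probe was the one taken, and Emr1 gave 0.23. Cd163 passed only through the Myd88-/- arrays, was dim on Myd88+/+ array 2 and is given no size. For 7 Schwann cell markers it was 26.6 and 25 on the Myd88-/- arrays and 26.8 and 29 on the Myd88+/+ arrays, with 2 apart and lower. Sox10 had overlapping arrays, and S100b, which fat cells also express, differed by -1.47 and Prx by -0.42. Of the 12 salivary gland genes, 2 were apart and lower and 5 apart and higher, with Smr3a at -1.86, Krt18 at 0.54, Lpo at 0.44 and Dcpp2 at 0.34. Smr3a gave -1.04 without Myd88-/- array 2, and its second probe differed by -0.44 with overlapping arrays. That second probe was the one taken without Myd88+/+ array 1, at -0.46, and without Myd88+/+ array 2, at -0.42. The part of these cells in the adipocyte result was not tested.

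**Figure D4:**
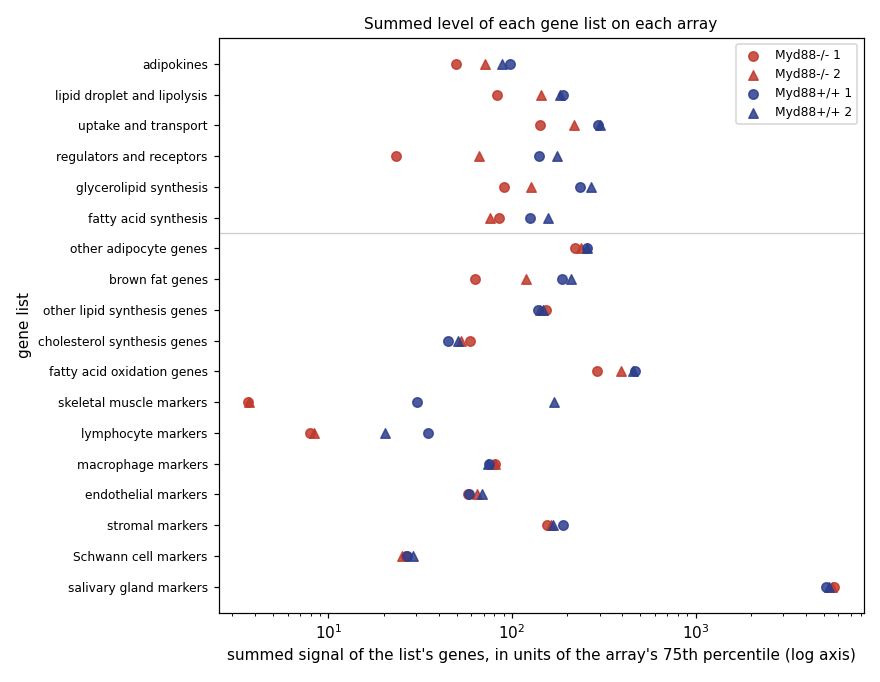
Summed signal of each gene list on each array, in units of the array's 75th percentile on a log axis, with the 6 roles of the members above the line. Red symbols for Myd88-/- lie left of blue symbols for Myd88+/+ in each of the 6 roles. They also do so for the other adipocyte, brown fat, fatty acid oxidation, lymphocyte, stromal and Schwann cell lists and, by the widest gap, for skeletal muscle markers.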

How the data were processed

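Gland RNA was labelled with Cy3 and hybridised to 8x60K mouse arrays, and the authors read the images with Agilent Feature Extraction 10.7.3.1, whose deposited files give each spot's background-corrected intensity. All 4 arrays were scanned together on 1 slide. From the processed intensity of the 59305 non-control spots an array, log2 values minus the 75th percentile of the array were computed. Spots flagged as outliers were left out, and spots of a probe were averaged. A probe was tested when it was well above background (in more than 0.5 of its spots) on the 2 arrays of either genotype; where several probes of a gene passed, the brightest was taken. Genotypes were compared with limma 3.58.1 in R 4.3.3 (lmFit, eBayes, Benjamini-Hochberg, threshold 0.05), tested on simulated data. The number of arrays limits the precision. Alternatives changed background correction, scaling, filter, probe choice, outlier spots, variance moderation, the test, pairing and arrays. Members and lists were chosen with earlier results of these data known. Values on every array were printed for all adipokines and, in other roles, for up to 5 members whose arrays were apart, largest difference first; of each other list, up to 4 such genes and the marker with the highest mean over all 4 arrays were named, except 2 genes that are not reported here. A series-wide table, whose 4 value columns match no single sample by name, was not used here. The study's text gives n = 3 a group and submandibular glands for the arrays, while the labels give 2 arrays and both glands; the labels were followed.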

Additional observations from a re-analysis of the deposited data

How the results depend on the processing

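The 34 tested members had 543 values under 16 alternative settings, of which 538 kept the direction. The exceptions were Retn, at 0.77 without Myd88-/- replicate 2 and 0.16 without Myd88+/+ replicate 1, and Nnat, at 0.0549 with normexp background correction (offset 50), 0.34 with no filter and 1.01 without Myd88-/- replicate 1, where for the last 2 its second probe was the brighter that passed. Leaving out 1 array in turn, the difference ranged from -0.93 to 0.77 for Retn and from -1.01 to 1.01 for Nnat. Limma called 0 genes at an adjusted p under 0.05, with 3715 at an unadjusted p under 0.05. Called genes numbered 79 with normexp (45 lower, 34 higher; 4 members), 482 with trend and robust moderation (217 lower, 265 higher; 8 members), 402 with median scaling (333 lower, 69 higher; 4 members) and 1 with the methods' t-test after Benjamini-Hochberg (0 members). The methods' t-test gave 2935 genes and 10 members before that adjustment. Under median scaling, array medians of -3.39, -2.65, -2.76 and -3.38 relative to the 75th percentile put a like offset between replicates into every gene, the prior degrees of freedom became infinite, and its p-values are not reliable. The cause of the other changes in calls was not tested. Leaving out 1 array, the lone array of a genotype being assumed to vary like the others, gave 0 genes and 0 members called, a median of the members of -1.11 to -0.50, of the adipokines of -0.92 to -0.38, and of the lipid synthesis enzymes of -1.44 to -1.02. Members with arrays apart and lower numbered 24 with median scaling, against 8.37% of all genes. Under the other settings they numbered 31 to 33, against 13.1% to 32.2% of all genes. With the replicate block 0 genes and 0 members were called, and it changed no call. Same-numbered arrays deviated from their group means with a correlation of -0.37 across genes, which are not independent. With 2 arrays a genotype, crossed arrays give 0.37 by construction, so this value cannot decide whether the numbers pair the arrays. Crossed pairs as a block, chosen after seeing the data, gave 0 genes and 0 members called. Signal over background limits Lep and Nnat.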
